A study of Saccharomyces cerevisiae with 21 samples.

Results

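In budding yeast, cells whose Snf2 carried the W935R substitution were compared with cells that had no SNF2 at all, by poly(A) RNA sequencing. The comparison took the 3 snf2-W935R libraries and the 3 snf2del libraries, 6 of the 21 libraries of the study, and kept each gene with a level of 1 TPM or more in at least 3 of these 6 (TPM is the share of all transcripts that a gene takes, corrected for gene length). That left 6391 of the 6407 genes in the table. The snf2-W935R strain has the genotype snf2[delta]; snf2-W935R::LEU2, the null strain snf2[delta]; LEU2, and the wild-type control, used here as the reference level, snf2[delta]; SNF2::LEU2. Each of these strains is thus labelled with the deletion of the chromosomal SNF2 gene and with LEU2, and by the labels they differ in whether the mutant allele, no SNF2 or the wild-type gene came with that marker. The cells were of the W303 background, in YPD (rich glucose medium), harvested on filters at mid-log phase, and the 3 biological replicates of a genotype came from different days. The labels give 1 genotype line per group and do not say whether the replicates are separate clones. The statistical fit also took in the 3 libraries of another allele, snf2-Q928K, to estimate the spread of replicates. Levels in the SWI3 wild-type strain of the study are quoted at some genes.

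Swi/Snf is a chromatin remodeling complex that slides and evicts nucleosomes, and Snf2 is its ATPase, the subunit that turns ATP hydrolysis into movement of DNA around the histones. The W935R name denotes an arginine in place of a tryptophan in the ATPase part of the protein. The contrast shows which RNAs differ between cells with an altered and with an absent ATPase. Swi/Snf is known in yeast for its part at the HO, SUC2, PHO5, PHO84 and INO1 promoters and for the repression of SER3, where transcription of the noncoding RNA SRG1 runs across the promoter.

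RNA from SNF2 was not analysed here, and the deletion therefore has no check on the deleted gene. The marker gene LEU2 separated the null from both other genotypes: it stood at 0.196, 0.399 and 0.285 TPM in snf2-W935R, at 141.0, 174.1 and 138.3 TPM in snf2del and at 0.219 to 0.552 TPM in SNF2. The limma log2 difference was -6.87 (adjusted p = 5.46e-13), the largest in size in the comparison. This level goes against the labels, which name LEU2 in all 3 genotypes, and the labels do not account for it. The other 5 markers on the list, URA3, TRP1, HIS3, ADE2 and CAN1, were lower in snf2-W935R by 0.30 to 0.65 on the log2 scale. URA3, HIS3 and CAN1 lost the call after both kinds of rescaling described below, and TRP1 after quantile scaling. Libraries of 1 group resembled each other closely, with Pearson correlations across genes of 0.993 to 0.995 in snf2-W935R and 0.988 to 0.992 in snf2del. The 3 null libraries had more genes at 1 TPM or above, 6382 to 6393 against 6327 to 6345, and a higher median level, 45.4 to 47.3 TPM against 37.4 to 39.5 TPM.

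Windows upstream of 4 genes are shown as examples of short motifs that were counted before genes. The motif counts are a description and were not tested. PHO5 is a phosphate gene at which the point mutant stood at the level of the null and PHO84 one at which it stood far above, NSR1 is a ribosome biogenesis gene that was higher in snf2-W935R, and XBP1 a stress gene that was lower. Each window holds the bases from 450 to 151 before the start codon on the coding strand, read from the RefSeq genome of build R64 at chrII:431102-431401, chrXIII:25951-26250, chrVII:807807-808106 and chrIX:177401-177700, all 4 on the minus strand. Capitals mark CACGTG or CACGTT in PHO5 and PHO84, GATGAG and AAAATTTT in NSR1 and AGGGG in XBP1, each on either strand. The window before PHO84 also lies over the noncoding RNA gene YNCM0001W and the reading frame YML122C.
PHO5: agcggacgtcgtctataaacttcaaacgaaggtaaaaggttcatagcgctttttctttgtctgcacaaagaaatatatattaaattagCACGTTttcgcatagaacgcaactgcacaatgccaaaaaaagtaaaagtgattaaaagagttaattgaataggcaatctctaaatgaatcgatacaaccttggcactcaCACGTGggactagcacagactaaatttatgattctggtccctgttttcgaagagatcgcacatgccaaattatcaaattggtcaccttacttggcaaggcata
PHO84: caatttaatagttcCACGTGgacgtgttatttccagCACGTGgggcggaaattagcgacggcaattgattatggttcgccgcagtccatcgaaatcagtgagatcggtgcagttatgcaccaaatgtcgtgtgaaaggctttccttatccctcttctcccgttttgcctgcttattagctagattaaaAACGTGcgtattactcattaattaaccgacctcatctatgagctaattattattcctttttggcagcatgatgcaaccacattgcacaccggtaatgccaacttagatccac
NSR1: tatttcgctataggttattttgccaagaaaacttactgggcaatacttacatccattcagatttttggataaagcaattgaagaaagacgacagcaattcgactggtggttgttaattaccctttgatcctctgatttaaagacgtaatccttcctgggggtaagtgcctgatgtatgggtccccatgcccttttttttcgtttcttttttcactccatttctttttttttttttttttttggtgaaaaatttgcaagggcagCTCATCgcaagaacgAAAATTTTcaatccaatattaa
XBP1: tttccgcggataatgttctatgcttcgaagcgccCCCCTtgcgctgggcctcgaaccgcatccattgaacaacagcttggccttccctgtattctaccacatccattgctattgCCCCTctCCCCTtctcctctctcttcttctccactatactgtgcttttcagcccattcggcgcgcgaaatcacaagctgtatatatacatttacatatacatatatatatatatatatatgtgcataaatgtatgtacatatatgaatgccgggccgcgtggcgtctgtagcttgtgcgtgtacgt

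The motifs in capitals were found at 362 and 253 bases before the PHO5 start and at 436, 414 and 262 bases before PHO84. CACGTG and CACGTT are letters bound by the phosphate regulator Pho4, AGGGG is the core of the stress element bound by Msn2 and Msn4, and GATGAG and AAAATTTT are the PAC and RRPE letters of ribosome biogenesis promoters. CACGTT was added to the search after values had been seen. In windows of this length CACGTG stood before 4.78%, CACGTT before 10.4%, AGGGG before 23.5%, GATGAG before 17.3% and AAAATTTT before 6.75% of 5833 genes.

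Most of the genome differed between the point mutant and the null, and more RNAs were lower in the point mutant than higher. With limma on log2(TPM + 1) and a threshold of 0.05 on the Benjamini-Hochberg adjusted p, 4606 of 6391 genes (72.1%) differed, of which 1501 (23.5% of all tested) were higher in snf2-W935R and 3105 (48.6%) were lower. A log2 difference of at least 1 as well, which is 2-fold, was reached by 175 genes (2.74%) upward and 991 genes (15.5%) downward. The median difference over all genes tested was -0.23, and it was 0.03 for snf2-W935R against SNF2 and 0.26 for snf2del against SNF2. These contrasts share libraries, so each gene's levels in the 3 genotypes are given side by side below. Against SNF2, snf2-W935R was higher at 1041 genes (16.3%) and lower at 697 (10.9%), and snf2del was higher at 3212 (50.3%) and lower at 1572 (24.6%).

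The split between higher and lower depended on scaling. TPM values are shares of a fixed total, so a change in abundant RNAs moves every other value. After median-ratio scaling of the libraries, which moved the median of all genes by 0.23 to 0.00, 2381 genes were higher (37.3%) and 2304 were lower (36.1%), with 409 and 662 of them past 2-fold. After quantile scaling 2559 genes were higher and 2121 lower. Differences smaller than about 0.23 in size can therefore change direction with median-ratio scaling. Quantile scaling moved some genes by more, and turned the phosphate gene PHM8 from -0.33 to 0.0054 and NDC80 from -0.28 to 0.0223. The counts below include genes whose direction can change unless a scaled count stands beside them.

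**Figure D1:**
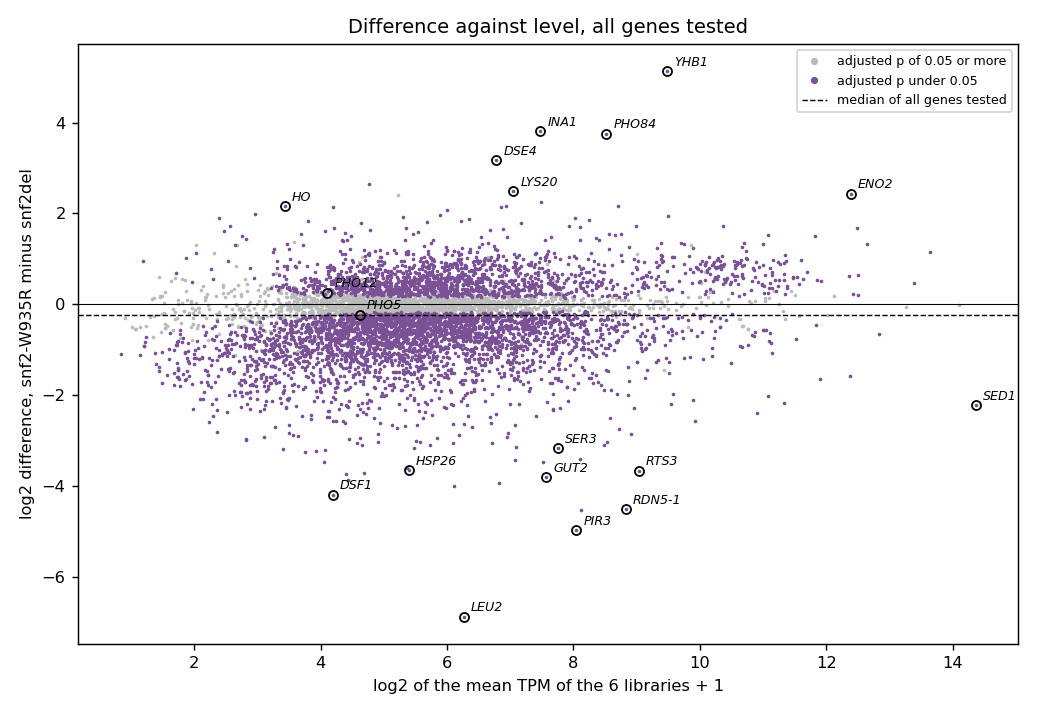
Difference between snf2-W935R and snf2del (y axis, log2 of TPM + 1) against level (x axis, log2 of the mean TPM of the 6 libraries + 1) for the 6391 genes tested, with purple points at an adjusted p under 0.05 and grey points at or above it. The dashed line is the median of -0.23, YHB1 is highest at 5.13, LEU2 lowest at -6.87, and PHO5 and PHO12 lie near 0.

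The largest differences upward were mostly at genes that were low in the null and closer to the wild-type level in the point mutant. YHB1, which encodes the flavohaemoglobin that detoxifies nitric oxide (chrVII:959904-961103, 1 coding exon), stood at 1433.7, 1349.9 and 1357.1 TPM in snf2-W935R and at 35.1, 36.6 and 44.0 TPM in snf2del. Its SNF2 level was 1486.6 ± 84.3 TPM (SD, n = 3). The groups were far apart, with a log2 difference of 5.13 ± 0.08 (SE, limma, adjusted p = 7.47e-15), while snf2-W935R differed from SNF2 by -0.11 (adjusted p = 0.375). INA1 followed, at 324.4, 324.8 and 342.5 TPM against 21.7, 26.0 and 20.3 TPM, a log2 difference of 3.81 ± 0.09. In SNF2 it stood at 426.3 ± 31.3 TPM, and snf2-W935R lay below that by 0.36 (adjusted p = 0.00557).

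LYS20, a homocitrate synthase of lysine synthesis, stood at 211.1, 229.0 and 229.0 TPM in snf2-W935R and at 36.2, 45.9 and 34.9 TPM in snf2del. The log2 difference was 2.49 ± 0.09 (limma, adjusted p = 3.19e-11), and the SNF2 level, 217.8 ± 14.4 TPM, was not distinguishable from that of the point mutant (difference 0.04, adjusted p = 0.811). LYS20 has 1 near-identical copy in the genome, so reads may be shared between the pair. ENO2, the enolase isozyme used on glucose, kept 9016.7 ± 189.8 TPM in snf2-W935R against 1667.0 ± 161.0 TPM in snf2del, a log2 difference of 2.44 ± 0.09. It too has a near-identical copy, ENO1, which was lower in snf2-W935R (-0.62).

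HO, the endonuclease of mating-type switching and a classical Swi/Snf target, stood between the levels of the other genotypes. It measured 17.3, 15.8 and 16.7 TPM in snf2-W935R, 3.20, 3.15 and 2.51 TPM in snf2del, and 76.0, 69.7 and 74.4 TPM in SNF2. None of the 3 groups overlapped. The point mutant was above the null by 2.16 ± 0.11 (limma, adjusted p = 4.84e-10) and below SNF2 by 2.08 on the log2 scale (adjusted p = 3.30e-09).

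4 further genes among the 12 largest had uneven replicates or no annotation. RPL39 stood at 930.0, 917.3 and 243.0 TPM in snf2-W935R, and its log2 difference of 2.17 was 2.81 without snf2-W935R replicate 3. RPL33A stood at 382.3, 350.0 and 162.4 TPM, and RPL28 at 236.7, 224.2 and 137.5 TPM, again with replicate 3 lowest. Each of these ribosomal protein genes was above its snf2del values in every library, and RPL22A, at 49.4, 139.5 and 8.07 TPM against 4.58, 13.4 and 4.34 TPM, was not called. YGR115C (2.64) was not matched to the annotation and gave 3.31 without snf2del replicate 2 and 1.82 without replicate 3. YGR035C closed the list at 28.6 ± 4.43 TPM against 5.88 ± 2.04 TPM (2.14).

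**Figure D2:**
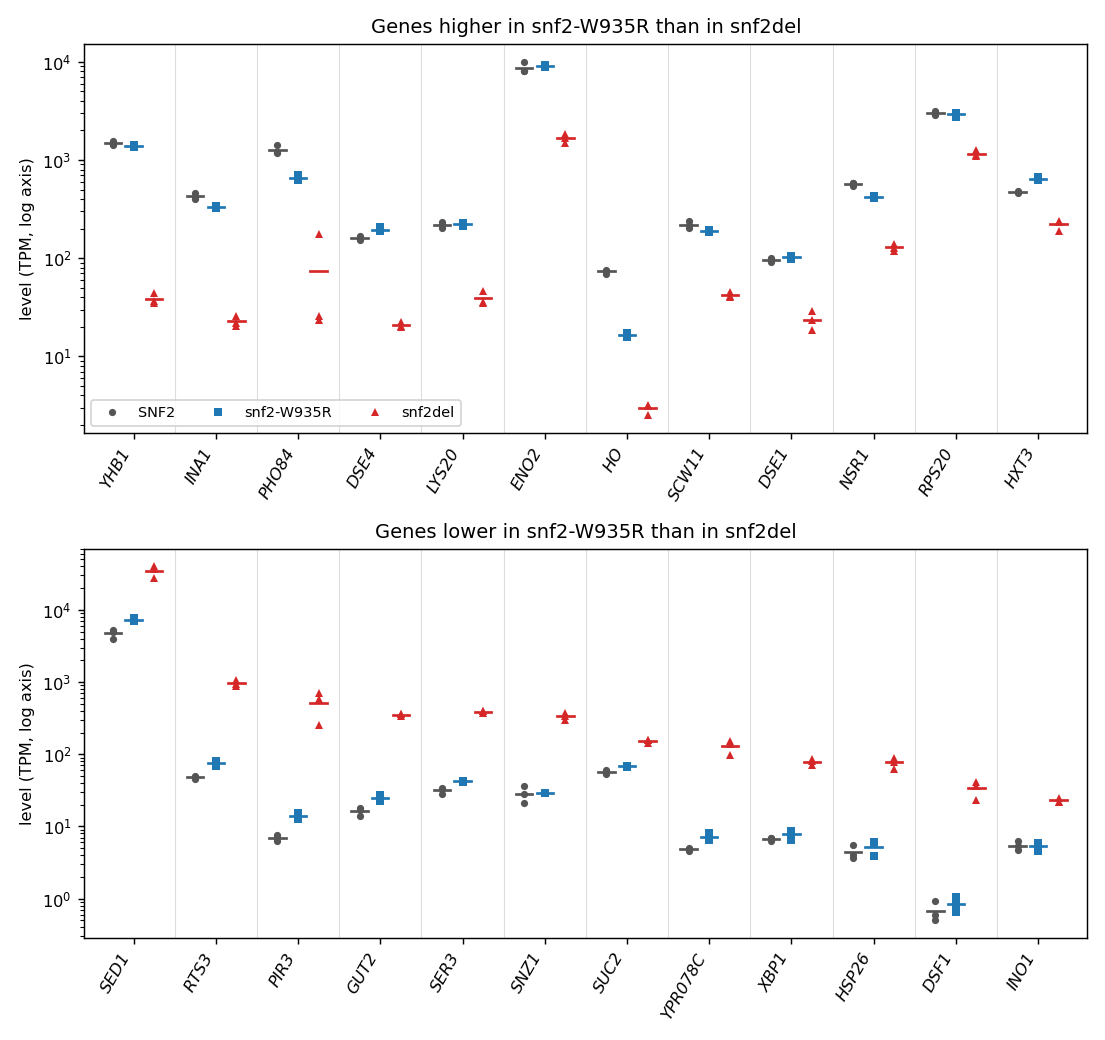
Level of 24 genes in each library (TPM, log axis), with 3 points and a mean bar for each of SNF2 (grey circles), snf2-W935R (blue squares) and snf2del (red triangles); the upper panel holds genes higher and the lower panel genes lower in snf2-W935R than in snf2del. The blue squares lie near the grey circles at most of these genes, HO stands between, and 1 of the snf2del points of PHO84 lies at 175.3 TPM, above the others.

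Genes for making ribosomes were higher in the point mutant almost throughout. Of 137 ribosomal protein genes 129 were higher and 1, RPS14B (-0.55), was lower, with a list median of 0.79 against -0.23 over all genes tested. Of 68 ribosome biogenesis genes 63 were higher and 0 lower in limma, with a median of 0.79. In both lists the point mutant lay near SNF2, with medians of -0.08 and -0.24 against it, while snf2del lay at -0.86 and -1.05. After median-ratio scaling 135 and 67 members were higher.

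Ribosomal protein genes together took 25.0%, 25.2% and 23.9% of all TPM in the 3 snf2-W935R libraries. They took 14.6%, 16.4% and 14.8% in snf2del, and 25.9%, 26.2% and 26.1% in SNF2. The mutant and null shares did not overlap. RPS20, of the small subunit, stood at 2911.5 ± 166.2 TPM against 1160.7 ± 99.7 TPM (log2 difference 1.33 ± 0.08, limma, adjusted p = 1.96e-09). NSR1, a nucleolar protein that processes pre-rRNA, stood at 411.5, 413.5 and 426.8 TPM against 117.6, 140.5 and 128.4 TPM (1.69 ± 0.08). It was slightly under its SNF2 level of 571.4 ± 25.3 TPM (-0.45, adjusted p = 0.000832).

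GATGAG was found within 450 bases of the start of 64 of 68 biogenesis genes and AAAATTTT of 55, as the window before NSR1 shows. Among genes higher by 2-fold with a promoter, 53.3% of 150 held GATGAG and 32.7% held AAAATTTT, against 26.1% and 12% of all 5833. Among genes lower by 2-fold, 21% and 5.3% of 868 did. The share of TATAAA was 60.7% and 66.0% in these 2 groups and 58.3% overall.

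Genes that act in the separation of daughter from mother cell were higher in the point mutant at every member listed. They were brought together after their values had been seen, so the count is a description. All 9, DSE1 to DSE4, SCW11, CTS1, EGT2, AMN1 and PRY3, were higher in snf2-W935R, with a median difference of 1.89 against the null and 0.05 against SNF2. DSE4, a glucanase of the septum, stood at 190.2, 189.5 and 208.0 TPM against 20.3, 22.4 and 20.1 TPM, and differed by 3.17 ± 0.07 (limma, adjusted p = 1.30e-13). SCW11, a glucanase-like wall protein, stood at 188.6 ± 5.62 TPM against 42.0 ± 2.66 TPM, and DSE1 at 101.9 ± 4.16 TPM against 23.7 ± 5.12 TPM. CTS1, the chitinase, moved least, from 793.3 TPM in snf2del to 1091.7 TPM (0.47). ASH1, a daughter-specific repressor of HO, was higher in snf2-W935R at 93.5 ± 2.36 TPM against 59.2 ± 0.54 TPM (0.65 ± 0.06).

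Glycolytic genes went both ways, with large differences upward at several of the most abundant RNAs. Of 20 genes of glycolysis and fermentation 12 were higher and 6 lower. ADH1, the main alcohol dehydrogenase, stood at 8679.0 ± 140.5 TPM in snf2-W935R against 2733.6 ± 225.7 TPM in snf2del (1.67 ± 0.08, limma, adjusted p = 4.39e-10), FBA1, the aldolase, at 9127.9 against 3625.1 TPM, and GPM1, the phosphoglycerate mutase, at 3196.3 against 1119.4 TPM. The members that were lower are GLK1 (-2.00), PDC6 (-1.39), PYK2 (-1.19), PDC5 (-0.78), ENO1 (-0.62) and HXK2 (-0.20, smaller than the shift that scaling removed). Summed over the list the level was 82533.1 to 86005.4 TPM in snf2-W935R, 41313.1 to 43996.4 TPM in snf2del and 68788.8 to 82945.9 TPM in SNF2.

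Hexose transport genes were called in shares near those of all genes tested, with 3 of 17 higher and 9 lower. After quantile scaling 5 were higher and 5 lower, and the median went from -0.70 to -0.04. The 3 that were higher as deposited were HXT3 (641.0 ± 20.7 against 221.0 ± 28.3 TPM, 1.54 ± 0.09), HXT1 (126.6 against 63.5 TPM) and HXT4 (0.63). The glucose sensor SNF3 was lower, at 9.07 against 24.2 TPM. HXT5, HXT9, HXT10, HXT11, HXT13, HXT15, HXT16 and the sensor RGT2 made up the rest of the 9.

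Genes that glucose represses were lower in the point mutant than in the null. Of 23 on the list 21 were lower and 1, ADH2, was higher, with a median of -1.48, and against SNF2 the median was 0.19 for snf2-W935R and 1.78 for snf2del. GUT2, the mitochondrial glycerol-3-phosphate dehydrogenase (chrIX:51759-53708), stood at 27.4, 23.5 and 22.3 TPM against 361.4, 356.6 and 340.4 TPM. Its groups differed by -3.80 ± 0.11 (limma, adjusted p = 2.80e-12), and snf2-W935R was slightly above its SNF2 level of 16.4 ± 2.25 TPM (0.55, adjusted p = 0.00158). JEN1, the lactate permease, stood at 7.71 against 51.8 TPM, and ADR1, an activator of glucose-repressed genes, at 21.6 against 93.5 TPM.

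SUC2, the invertase gene needed for growth on sucrose and a classical Swi/Snf target, stood at 67.6, 68.2 and 68.0 TPM in snf2-W935R and at 157.2, 141.4 and 157.4 TPM in snf2del. In SNF2 it was at 56.3 ± 4.43 TPM, so in these cells on glucose the null had the most SUC2 RNA, and the point mutant was lower by 1.15 on the log2 scale (limma, adjusted p = 3.73e-09). ADH2, the glucose-repressed alcohol dehydrogenase, went the other way, at 594.3 ± 22.2 against 207.8 ± 24.7 TPM (1.52 ± 0.12). Its reading frame resembles that of ADH1, which was higher as well, at 8679.0 against 2733.6 TPM. In SNF2 ADH2 stood at 481.4 and ADH1 at 7008.0 TPM, and in snf2-Q928K at 476.1 and 6634.5 TPM. How reads common to both were assigned is not given in the sources used here. Whether the ADH2 values hold ADH1 reads was not tested.

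Mitochondrial energy genes were lower too. In the TCA cycle 13 of 15 genes were lower and 1 higher (median -0.56), and in the respiratory chain and ATP synthase 28 of 36 were lower and 1 higher (median -0.50). CIT1, citrate synthase, stood at 90.3 against 305.5 TPM, LSC2 at 104.8 against 222.8 TPM and COX5A at 450.8 against 788.4 TPM. After median-ratio scaling 10 of 15 and 19 of 36 were lower. Against SNF2 these lists had medians of 0.65 and 0.45 in snf2-W935R and of 1.29 and 1.04 in snf2del.

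The general stress genes were lower at 31 of 32 measured members and higher at 0 in limma, with a median of -1.09. Against SNF2 the medians were 0.25 for snf2-W935R and 1.43 for snf2del. HSP26, a small heat-shock protein, stood at 5.76, 6.08 and 3.90 TPM against 88.4, 79.2 and 63.4 TPM (-3.65 ± 0.17, limma, adjusted p = 4.19e-10). XBP1, a repressor made under stress, stood at 8.78, 6.50 and 8.45 TPM against 85.5, 70.4 and 80.6 TPM (-3.17 ± 0.11). Both genes lay close to their SNF2 levels of 4.39 and 6.72 TPM. AGGGG stood within 450 bases of the start of 29 of the 32 genes, of 48.0% of the 868 genes lower by 2-fold, of 19.3% of the 150 higher by 2-fold and of 32.0% of all genes, and the XBP1 window holds it 3 times.

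**Figure D3:**
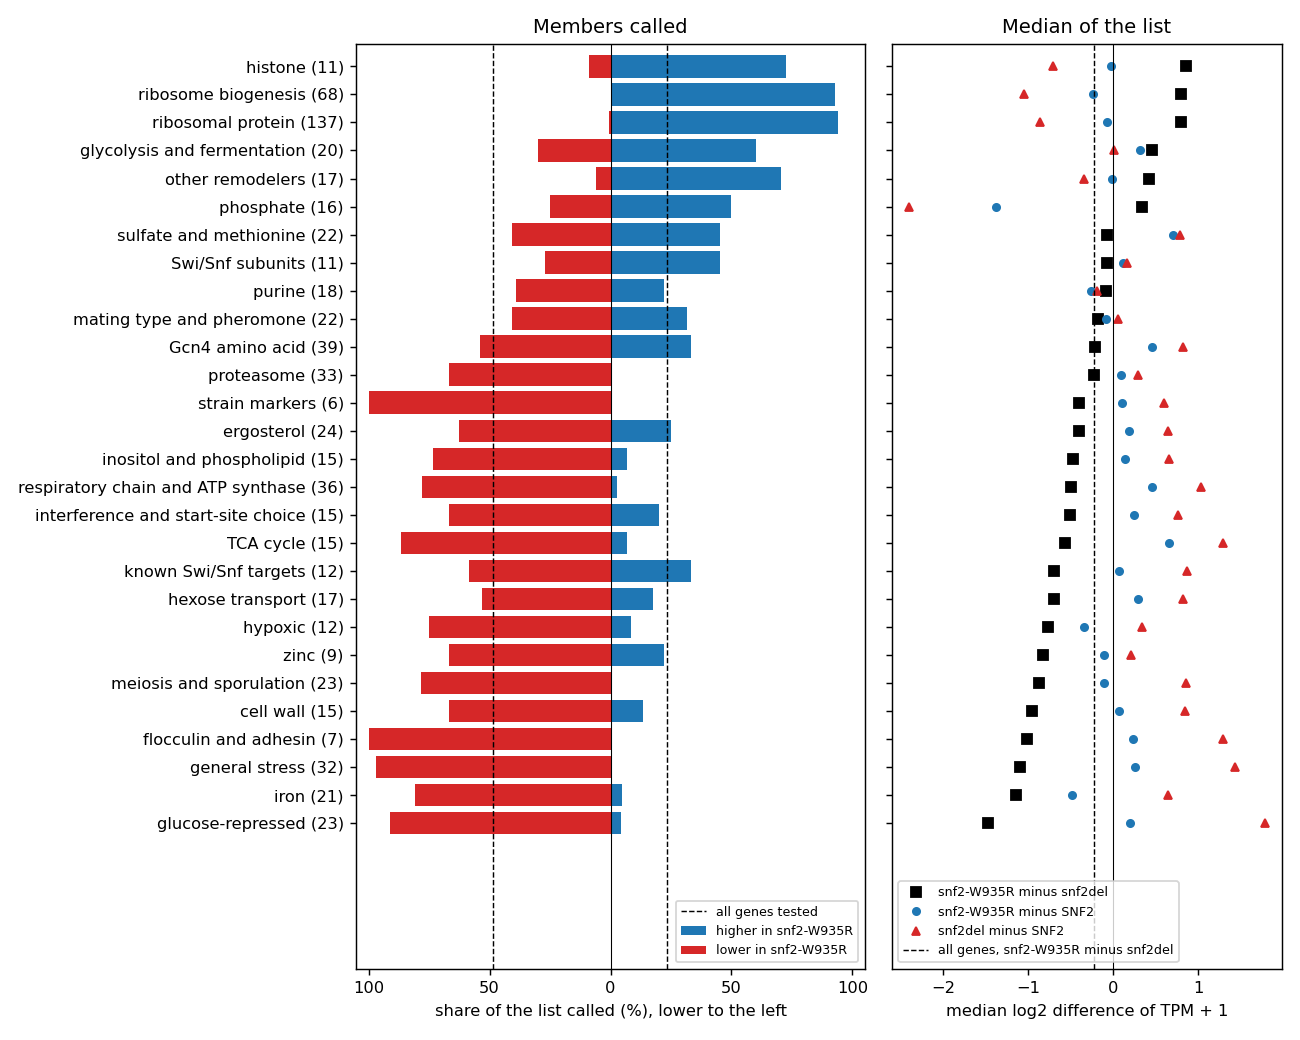
The 28 gene lists with the number of members tested in brackets: at the left, the share of each list (%) higher (blue, to the right) and lower (red, to the left) in snf2-W935R than in snf2del, with dashed lines at the shares of all genes, 23.5% and 48.6%. At the right, the median log2 difference of each list for snf2-W935R minus snf2del (black squares), snf2-W935R minus SNF2 (blue circles) and snf2del minus SNF2 (red triangles), with a dashed line at -0.23; the phosphate list is the one whose blue circle lies farthest from 0, at -1.38.

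Cell surface genes were among those furthest below the null. PIR3, an O-glycosylated wall protein (chrXI:144401-145378), stood at 15.6, 13.6 and 12.8 TPM in snf2-W935R and at 695.5, 254.9 and 580.1 TPM in snf2del. The spread in the null was wide, yet the groups did not overlap, and the log2 difference was -4.97 ± 0.30 (limma, adjusted p = 2.19e-07). SED1, a structural wall protein, was the most abundant RNA of the null at 39943.0, 27215.1 and 36705.7 TPM, against 7426.5, 7713.7 and 6897.7 TPM in snf2-W935R. CRH1, which links chitin to glucan, stood at 609.6 against 3200.3 TPM. Altogether 10 of 15 wall genes were lower and 2, CWP1 and GAS1, were higher, and the 7 flocculin and adhesin genes were all lower in this fit and after both scalings. FLO11, a flocculin with a long regulatory region, stood at 15.4 ± 0.14 against 32.0 ± 1.95 TPM, and 11.3 ± 1.55 TPM in SNF2.

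Several further genes of other functions stood as far down. RTS3 (80.1, 78.3 and 68.7 TPM against 1069.0, 886.7 and 951.2 TPM) differed by -3.66 ± 0.09, and the point mutant was above its SNF2 level of 47.6 ± 2.58 TPM (0.66, limma, adjusted p = 5.03e-05). YPR078C, of unknown function, stood at 7.10 ± 0.91 against 129.4 ± 28.4 TPM (-3.99). DSF1, a relative of mannitol dehydrogenases at the left end of chromosome V, stood at 1.06, 0.845 and 0.651 TPM against 41.0, 23.1 and 36.9 TPM (-4.19 ± 0.22). The fatty acid desaturase gene OLE1 stood at 932.1 against 4186.4 TPM (-2.17) and led the hypoxic list, in which 9 of 12 were lower and 1 higher. SNZ1, of vitamin B6 synthesis, stood at 29.5, 29.4 and 28.7 TPM against 338.5, 367.6 and 297.6 TPM (-3.47), with 28.4 ± 7.84 TPM in SNF2.

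The ribosomal DNA repeat gave 5 of the 12 largest differences downward among 5S RNA genes. RDN5-1 stood at 39.5, 35.7 and 33.4 TPM in snf2-W935R, at 720.8, 1180.0 and 701.6 TPM in snf2del and at 124.2, 130.5 and 152.9 TPM in SNF2. The copies are near-identical, with 9 similar sequences found for RDN5-1, so reads cannot be assigned to 1 of them, and 5S RNA is not a usual target of poly(A) selection. How much such RNA each library carried over was not tested. YLR154C-H, a reading frame in the same repeat, stood at 245.3, 390.1 and 15.3 TPM in snf2del, and its log2 difference of -3.94 was -3.07 and not called without snf2del replicate 2 and -5.36 without replicate 3.

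SER3, the serine synthesis gene repressed by transcription of SRG1 (chrV:322686-324095), was near its repressed level in the point mutant. It stood at 42.5, 41.7 and 42.4 TPM in snf2-W935R, 369.4, 393.3 and 394.9 TPM in snf2del and 33.4, 33.6 and 27.8 TPM in SNF2. The point mutant was far below the null (-3.16 ± 0.07, limma, adjusted p = 3.07e-13) and above SNF2 by 0.41 (adjusted p = 0.000816). SRG1, the noncoding RNA at chrV:322212-322762, stood at 40.3, 32.6 and 30.6 TPM against 57.9, 40.2 and 46.1 TPM. Its annotated span runs past the start of SER3 on the same strand, so the pair may share reads. These SRG1 values overlapped between the groups, and the call at -0.46 (adjusted p = 0.00552) was lost after both scalings. SRG1 covers the 300 bases from 450 to 151 before the SER3 start codon.

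SER3 and SRG1 belong to a list of 15 genes known for regulation by an upstream transcript or by choice of start site. Of these, 10 were lower and 3 higher, against 48.6% lower and 23.5% higher among all genes tested. After either scaling 7 of the 15 were lower and 4 higher. Among all genes 36.1% were lower and 37.3% higher after median-ratio scaling. IMD2, the GTP-regulated IMP dehydrogenase, stood at 69.0, 69.6 and 66.4 TPM against 251.6, 217.0 and 273.3 TPM, and at 9.33 ± 1.70 TPM in SNF2, so the point mutant was above SNF2 and below the null. In the SWI3 wild-type strain IMD2 stood at 30.2 ± 4.81 TPM, between SNF2 and the point mutant. URA2, of pyrimidine synthesis, stood at 273.0 ± 9.24 against 841.2 ± 30.4 TPM, with 160.1 ± 9.87 TPM in SNF2. LEU4 (-1.28), URA8 (-1.21), IME4 (-0.80) and IME1 (-0.51) were lower as well. ADH1, ADE12 (0.75) and PHO84 were the 3 that were higher. NDC80, a kinetochore gene, was at -0.28, a value whose direction turned after quantile scaling.

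At phosphate genes the point mutant was far from SNF2. Of 16 measured, 8 were higher in snf2-W935R than in snf2del and 4 lower, with a median of 0.34, and after median-ratio scaling 11 were higher and 3 lower. Against SNF2 the median was -1.38 for snf2-W935R and -2.40 for snf2del. In this pathway Pho4 switches on transporters and secreted phosphatases when phosphate runs short, and CACGTG stood within 450 bases of the start of 13 of the 16 genes, against 5.73% of all genes.

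Transporters differed among themselves. PHO84, the high-affinity phosphate transporter (chrXIII:24037-25800), stood at 710.2, 632.0 and 629.5 TPM in snf2-W935R, at 25.5, 175.3 and 23.6 TPM in snf2del and at 1270.7 ± 133.5 TPM in SNF2. The groups did not overlap, although snf2del replicate 2 stood apart. The log2 difference was 3.76 ± 0.65 (limma, adjusted p = 0.000792), and 4.69 without that library. The point mutant also lay below every SNF2 library, by 0.95 on the log2 scale, which was not called (adjusted p = 0.332). The fit shares 1 spread per gene among its groups, so this contrast too has an SE of 0.65, which includes the wide spread of the null. The missing call therefore does not show that the point mutant and SNF2 had the same PHO84 level. PHO84 has an antisense RNA, and whether counting used the strand is not given in the sources used here. PHO89, the sodium-coupled transporter, was by contrast lower in the point mutant than in the null, at 8.23, 4.93 and 5.89 TPM against 13.1, 17.7 and 9.88 TPM, and at 167.0 ± 10.8 TPM in SNF2. Its difference of -0.98 (adjusted p = 0.0016) lost the call after quantile scaling.

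The secreted acid phosphatases stood at the level of the null. PHO5 measured 24.0, 21.7 and 19.1 TPM in snf2-W935R, 21.2, 27.8 and 28.0 TPM in snf2del and 209.4, 219.7 and 183.5 TPM in SNF2. The mutant and null overlapped, and their difference was -0.23 (95% interval -0.48 to 0.02, limma, adjusted p = 0.0847). It was called at -0.31 without snf2-W935R replicate 1 and at -0.36 without snf2del replicate 1. PHO12 stood at 17.6 ± 0.63 and 14.7 ± 2.24 TPM against 370.7 ± 30.2 TPM in SNF2, and PHO11 at 15.0 ± 0.77 and 12.6 ± 2.10 TPM against 301.6 ± 19.0 TPM. Their differences from the null, 0.25 and 0.24, were not called (adjusted p = 0.0587 and 0.0813), but both were called after either scaling and without snf2del replicate 2. PHO11 and PHO12 are near-identical copies of each other.

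Regulators and polyphosphate genes lay between. PHO81, the inhibitor of the Pho80-Pho85 kinase, stood at 41.1 ± 2.67 TPM against 21.1 ± 3.43 TPM and 77.7 ± 3.18 TPM in SNF2 (0.94 ± 0.11 against the null). VTC3, of the vacuolar polyphosphate polymerase, stood at 62.7 ± 4.82, 33.9 ± 7.60 and 303.0 ± 26.9 TPM in the same order, and PHM6 at 8.97 ± 1.3, 2.63 ± 1.14 TPM and 116.8 ± 33.2 TPM. SPL2, a repressor of low-affinity transport, stood at 2.78, 3.15 and 3.33 TPM against 1.37, 3.44 and 1.02 TPM and at 97.0 ± 10.9 TPM in SNF2. Its difference from the null was 0.56 and not called (adjusted p = 0.0751). PHO8, the vacuolar alkaline phosphatase, was lower in the point mutant than in both others, at 100.4 ± 3.45 TPM against 176.0 ± 14.0 and 158.2 ± 11.6 TPM.

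snf2del replicate 2 was the highest null library at 13 of the 16 phosphate genes, all but PHO5, PHO8 and GIT1. VTC1 stood at 621.2 TPM there against 426.5 and 415.7 TPM in the other null libraries, and VTC4 at 169.4 against 109.4 and 106.5 TPM. Without this library 11 of the 16 genes were higher in snf2-W935R and 4 lower, with a median of 0.46, and the calls gained were those at PHO11, PHO12 and SPL2.

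**Figure D4:**
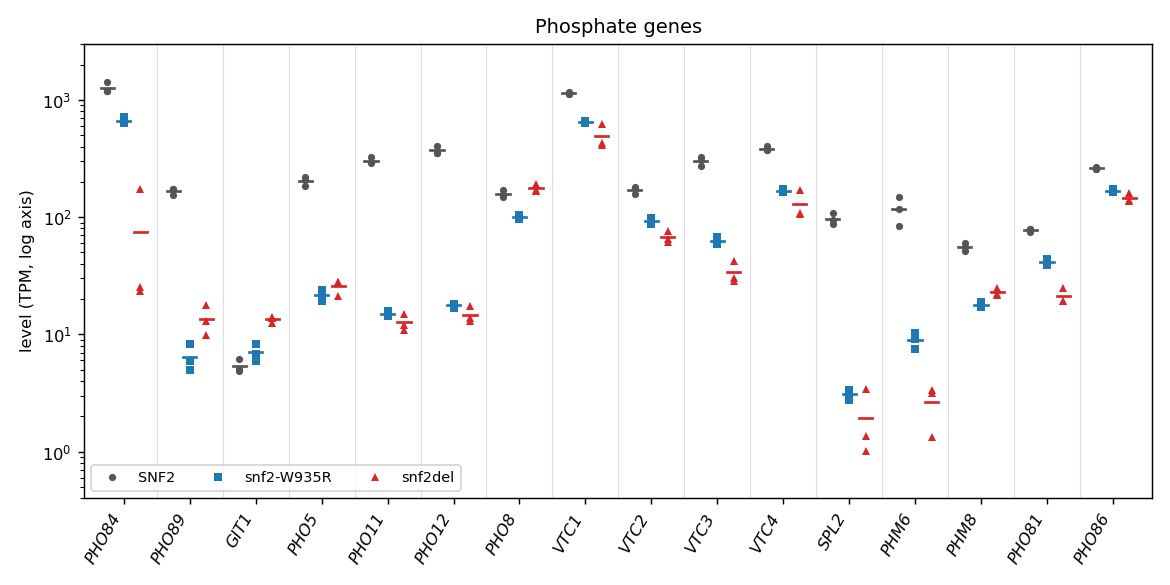
Level of the 16 phosphate genes in each library (TPM, log axis), with 3 points and a mean bar for each of SNF2 (grey circles), snf2-W935R (blue squares) and snf2del (red triangles). At PHO5, PHO11 and PHO12 the squares and triangles lie together, far below the circles, whereas at PHO84 the squares, 629.5 to 710.2 TPM, lie well above the triangles and below the circles, 1188.8 to 1424.7 TPM.

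The other known Swi/Snf targets also divided, in shares near those of all genes tested (23.5% higher and 48.6% lower). Of 12 on the list 4 were higher (HO, PHO84, ADH2 and ARG1), 7 were lower and PHO5 was not called. For ADH2 the caution on reads shared with ADH1 holds here too. INO1, the inositol synthesis gene, stood at 5.69, 5.85 and 4.56 TPM against 21.9, 25.1 and 21.9 TPM, and at 5.43 ± 0.76 TPM in SNF2. RNR3, FLO1 and GAL1 were lower at low levels, 2.58 against 6.87, 3.29 against 13.4 and 9.86 against 15.3 TPM. RNR3 and GAL1 lost the call after quantile scaling.

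Some genes that the deletion moved stood near the level of the null in snf2-W935R. Of 680 genes with a log2 difference of at least 1.5 between snf2del and SNF2 and no overlap, 15 had a 95% interval for snf2-W935R against snf2del that lay within 0.5 on either side of 0 in the values as deposited. Because values chose them, no test is given, and membership depends on the scaling: after quantile scaling PHO12 lay 0.71, YGR027W-B 0.56 and RDS1 0.50 above the null. A gene can fail this rule without being shown to differ from the null, as did SPL2 (interval -0.02 to 1.13) and PHO11 (-0.01 to 0.503). An interval that passes can also leave out 0, as at ENB1 (-0.42 to -0.03). Besides PHO5 and PHO12 the first 8 by size of the deletion effect were RDS1, AAD3, YFL064C, YFL065C, ENB1 and YGR027W-B. RDS1, a zinc cluster factor, stood at 17.0 ± 1.06 and 16.2 ± 1.51 TPM and at 0.548 ± 0.249 TPM in SNF2. The neighbouring AAD3 stood at 28.1, 31.5 and 3.81 TPM in the same order. In the SWI3 wild-type strain of the study these genes stood at 16.2 and 26.8 TPM, and YFL064C and YFL065C at 14.5 and 14.1 TPM, so at these 4 genes the SNF2 libraries were the ones that stood apart. YFL064C and YFL065C each have 16 similar copies. ENB1, a siderophore transporter, stood at 39.4 and 46.3 TPM against 174.8 TPM, and YGR027W-B, a Ty reading frame with 30 similar copies, at 27.1 and 22.7 TPM against 85.8 TPM.

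A further 25 genes lay outside the range of SNF2 and snf2del, 5 above and 20 below, by at least 1 on the log2 scale against each. They too were chosen by value. Those below include the 5S genes RDN5-1 to RDN5-6, near-identical copies whose reads cannot be told apart. The 20 are therefore not all separate signals. Arginine genes were on both sides. ARG3, ornithine carbamoyltransferase, stood at 174.5, 183.5 and 179.5 TPM in snf2-W935R, 57.7, 52.7 and 57.6 TPM in snf2del and 30.5, 10.6 and 27.2 TPM in SNF2. ARG1, argininosuccinate synthase, stood at 423.9 ± 14.2, 192.6 ± 6.83 and 59.0 ± 13.3 TPM in that order. CAR2, which breaks down ornithine, was instead lowest in the point mutant, at 9.98, 6.32 and 6.45 TPM, with 38.7 ± 5.45 TPM in snf2del and 34.3 ± 5.85 TPM in SNF2. The arginase gene CAR1 was not of this kind, at 102.2 ± 4.04, 330.1 ± 50.7 and 104.0 ± 1.98 TPM.

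Iron genes supplied several of those below. HMX1, heme oxygenase, stood at 19.1, 15.0 and 15.6 TPM in snf2-W935R, 127.1 ± 14.2 TPM in snf2del and 49.4 ± 5.07 TPM in SNF2. TIS11, whose product promotes decay of messenger RNAs when iron is short, stood at 14.1 ± 0.85, 45.4 ± 10.4 and 66.2 ± 8.03 TPM, and the siderophore transporter ARN1 at 22.9 ± 0.40, 53.1 ± 3.03 and 66.7 ± 5.35 TPM. In the SWI3 wild-type strain HMX1, TIS11 and ARN1 stood at 29.3 ± 2.45, 30.1 ± 1.06 and 49.4 ± 2.58 TPM. These levels lay above the point mutant but nearer to it than those in SNF2. Of 21 iron genes 17 were lower in snf2-W935R than in snf2del and 1 was higher, with a median of -1.14, and the median against SNF2 was -0.49. FTH1 and SMF3, which move metal out of the vacuole, stood at 87.6 against 226.3 and at 103.1 against 286.9 TPM. IRC2, which was not matched to the annotation, stood above, at 61.6 ± 4.19, 18.5 ± 1.5 and 18.3 ± 4.84 TPM. The snf2-Q928K levels were not compared in the rule that chose these genes. The libraries did enter the estimate of spread behind its adjusted p. In snf2-Q928K ARG3, ARG1, CAR2 and IRC2 stood at 212.9, 403.8, 11.7 and 45.2 TPM, also outside the range of SNF2 and snf2del. HMX1 stood within that range there, at 69.8 TPM, and TIS11 and ARN1 stood at 32.7 and 35.5 TPM.

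**Figure D5:**
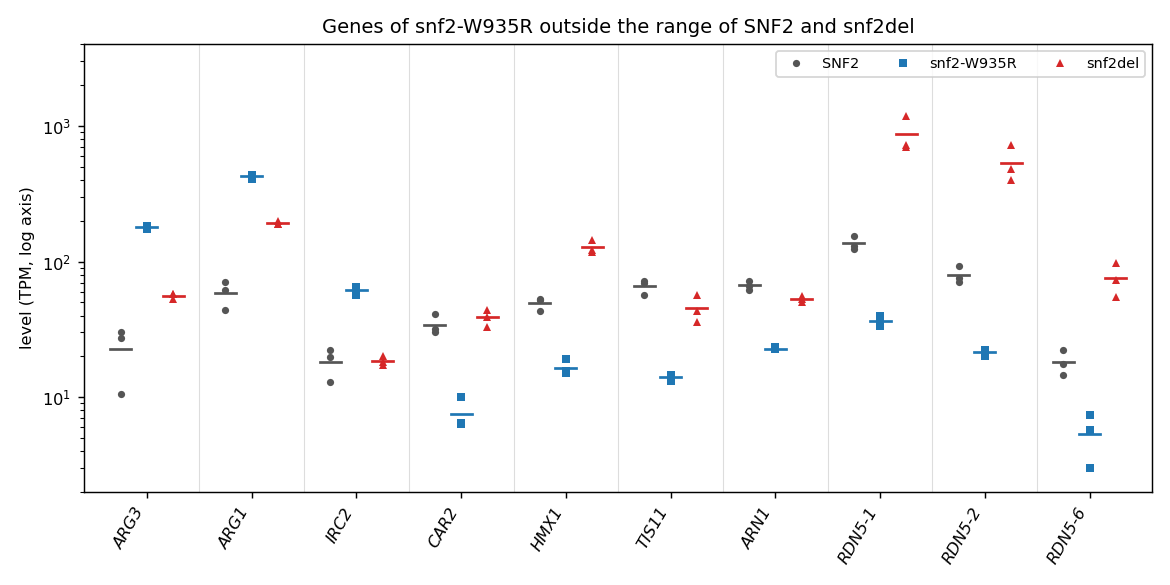
Level of 10 genes that lie outside the range of SNF2 and snf2del in snf2-W935R, in each library (TPM, log axis), with 3 points and a mean bar for each of SNF2 (grey circles), snf2-W935R (blue squares) and snf2del (red triangles). The squares are above both other groups at ARG3, ARG1 and IRC2 and below both at the other 7 genes. Of these, RDN5-1, RDN5-2 and RDN5-6 are near-identical copies that share reads.

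Most genes for histones and for other remodelers were higher in the point mutant. Of 11 histone genes 8 were higher and 1, the linker histone HHO1, was lower, with a median of 0.85. HTA1 stood at 679.8, 660.0 and 639.4 TPM against 302.7, 357.1 and 324.9 TPM and HTB1 at 1077.9, 988.3 and 963.8 TPM against 437.2, 506.5 and 519.4 TPM. Both lie within a stretch of 48 genes on chromosome IV, from GCD6 to EXG2. Its median was -0.18 in this comparison but -0.90 and -0.69 for snf2-W935R and snf2del against SNF2. In the SWI3 wild-type strain HTB1 stood at 832.1 TPM, against 1156.9 TPM in SNF2, and HTA1 at 788.2 against 778.2 TPM. Why SNF2 lay above both other genotypes across this stretch was not tested, so its levels there are an uncertain reference. Of 17 genes for other remodelers 12 were higher and 1, RSC6, was lower. Neither HHO1 nor RSC6 was called lower after either scaling. STH1, the ATPase of the related RSC complex, stood at 68.8 against 37.0 TPM, RSC4 at 38.5 against 19.5 TPM and SWR1 at 34.0 against 18.6 TPM.

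Of the 11 other Swi/Snf subunit genes 5 were higher and 3 lower. ARP9 stood at 78.0 against 44.4 TPM (0.81 ± 0.09), SWI3 at 45.4 against 33.4 TPM (0.43 ± 0.07) and SWI1 at 34.4 against 24.5 TPM, while SWP82 was lower at 34.9 against 56.6 TPM (-0.68 ± 0.09).

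In amino acid, sulfur and purine metabolism the members went both ways, as did all genes tested (23.5% higher and 48.6% lower). The shares of the Gcn4 and purine lists lay near those of all genes. Of 39 genes of amino acid synthesis under Gcn4, 13 were higher and 21 lower. ASN1, asparagine synthetase, was higher at 783.0 against 235.4 TPM (1.73). Of 22 sulfate and methionine genes 10 were higher and 9 lower, with the sulfate permease SUL1 at 11.3 against 35.3 TPM and SAM1 higher (0.72). Of 18 purine genes 4 were higher and 7 lower, and GCV1, GCV2 and GCV3 of the glycine cleavage system were among the lower (-1.60, -1.25 and -1.11), while HPT1, a salvage enzyme, stood at 529.2 against 225.7 TPM. The medians of these lists lay between -0.21 and -0.08, and their sign turned with median-ratio scaling.

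Membrane lipid and zinc genes were more often lower than higher, as were all genes tested (48.6% lower and 23.5% higher). In the inositol and phospholipid list 11 of 15 were lower and 1 higher, with OPI3 at 91.9 against 309.0 TPM. In the ergosterol list 15 of 24 were lower and 6 higher, shares near those of all genes. Of 9 zinc genes 6 were lower and 2 higher, led by IZH2 at 39.3 against 126.2 TPM. After median-ratio scaling 8, 13 and 5 members of these lists, in this order, were lower and 3, 9 and 3 higher. Meiosis genes, which vegetative cells keep low, were lower at 18 of 23 and higher at 0 in limma, with DMC1 at 6.47 against 34.8 TPM. After quantile scaling 8 of these meiosis genes were lower and 3 higher, and the list median went from -0.87 to -0.06. Of 22 mating genes 7 were higher and 9 lower, and the agglutinin gene AGA2 stood at 84.1 against 222.6 TPM. The proteasome list showed how far scaling reaches, with 22 of 33 lower and 0 higher as deposited, and 6 lower and 5 higher after median-ratio scaling.

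Genes near chromosome ends were lower in the point mutant. Of 225 genes within 20 kb of an end 176 were lower and 13 higher, with a median of -0.90, and of 5716 elsewhere 2727 were lower and 1435 higher, with a median of -0.19. Against SNF2 the median of the end genes was 0.39 for snf2-W935R and 1.40 for snf2del. After median-ratio scaling 151 of the 225 were lower, with a median of -0.66. Many end genes belong to families with near-identical copies, so single genes there are uncertain. No chromosome as a whole departed from the rest by as much: their medians ranged from -0.42 on chromosome I to -0.11 on chromosome V.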

How the data were processed

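Messenger RNA levels were compared between 3 snf2-W935R and 3 snf2del libraries, with 3 SNF2 libraries as reference. Per the labels, RNA was selected for poly(A) and made into directional libraries. The authors deposited TPM per gene and library, and tables of their own log2 fold change and adjusted p-value against SNF2, which were read but are not printed. HISAT2, StringTie, DESeq2 and builds sacCer3 and R64 stand in the submitters' processing notes, with no version, and the use of strand in counting is not given in the sources used here. TPM keeps no read depth, so the depth is unknown and no counting interval is given. The replicates were collected on separate days, and nothing ties a day to a number.

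Levels were tested as log2(TPM + 1) in limma 3.58.1 (R 4.3.3), with trended and robust moderation, over the 12 libraries of SNF2, snf2-W935R, snf2-Q928K and snf2del and the 6391 genes that reached 1 TPM in 3 or more of the 6 libraries compared. Differences are on that scale and understate those of low genes. Errors after a level are SDs (n = 3), errors after a log2 difference are SEs, and p-values are Benjamini-Hochberg adjusted over all genes tested. The fit was tested on simulated data. Names were matched to the R64 annotation for 5951 genes of the table and not for 456, and similar copies were found with BLAST 2.17.0. No column of sample values was left unused in the TPM table (0 columns).

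The genes, the 28 lists and the comparison were chosen with earlier results of these data known. Named genes were the 12 largest differences in each direction with an adjusted p under 0.05, 2-fold, a mean of 10 TPM or more in the group that was higher and separate replicates, up to 3 members of each list by p, genes at the level of the null or outside the range of SNF2 and snf2del, and a set of known targets. The daughter cell genes, ASH1, SED1, SRG1, CAR1, ARG1, ARN1, RPL22A, the remaining phosphate genes and the list members given by their difference alone were named after their values were seen. Alternatives changed the pseudocount, filter, scaling, moderation, libraries in the fit, replicate block and each replicate in turn.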

Additional observations from a re-analysis of the deposited data

How the results depend on the processing

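Scaling moved the counts most. Genes higher in snf2-W935R numbered 1501 as deposited, 2381 after median-ratio scaling and 2559 after quantile scaling, and those higher by 2-fold 175, 409 and 445. Genes lower by 2-fold numbered 991, 662 and 555, and with a pseudocount of 5 the 2-fold counts were 138 and 690. Leaving out each replicate of the 2 groups in turn gave 1329 to 1506 higher, 2869 to 3048 lower, 152 to 231 higher by 2-fold and 959 to 1036 lower by 2-fold. Same-numbered replicates did not deviate together: the correlations of snf2-W935R with snf2del were 0.08, 0.02 and -0.02, and 1 of 3 libraries matched its own number best. With the replicate number as a block 1475 genes were higher and 3067 lower, 175 and 991 of them past 2-fold.

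Of the values for 155 named genes under 15 alternatives, 2258 kept their direction and call, 34 lost the call, 18 gained it and 15 turned. ENB1 came to 0.0083 after median-ratio and 0.0391 after quantile scaling, and NDC80 to 0.0223 and PHM8 to 0.0054 after quantile scaling. The other values that turned were small and called under neither setting. With median-ratio and then quantile scaling they were 0.0685 and 0.1185 for AAD3, 0.1219 and 0.1015 for IMD3, 0.1537 and 0.2846 for YFL064C and 0.1105 and 0.2133 for YFL065C. PHO5 came to 0.0846 after quantile scaling, and YFL064C ranged from -0.2144 to 0.0170 when each replicate was left out in turn. The sign of the median turned with both scalings for the Swi/Snf subunit, sulfate, purine and mating lists, and with median-ratio scaling alone for the proteasome and Gcn4 lists. Read depth is unknown, so differences at a few TPM rest on the spread of 3 libraries alone.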
